A study of Homo sapiens with 16 samples.

Results

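The Krüppel-like factors KLF2, KLF3, KLF4, KLF5, KLF6, KLF9, KLF10, KLF11 and KLF13 were measured in Caco-2 cells, a human epithelial line from a colon carcinoma. They were taken by gene name, with every non-control probe of the array that carries one of these 9 names. This gave 15 probes of 41000 on the array, which carries 30982 gene names in all. For a gene with several probes, each probe is given on its own. All 15 probes could be tested, and 14 were well above background on all 16 arrays. The exception, KLF2 probe A_24_P151305, was not well above background on 1 PT array.

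Krüppel-like factors are transcription factors with zinc fingers at the C-terminus, which bind GC-rich and CACCC sequences that the related SP factors bind too. They are sorted by what their N-terminal part recruits. KLF2, KLF4, KLF5 and KLF6 mostly activate genes with acetyltransferases such as p300, KLF9, KLF10, KLF11 and KLF13 recruit the SIN3 corepressor, and KLF3 recruits the corepressor CtBP. In the gut, KLF4 is found in differentiated surface cells and slows the cell cycle, while KLF5 is found in the dividing cells of the crypts. Several of the genes are switched on early by growth factors, serum or stress.

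Undifferentiated Caco-2 cells were kept for 6 h in low-serum medium with a stimulant or without any (MED-CTL). The stimulants were the synthetic gliadin peptide p31-43 at 150 µg/ml, gliadin digested with pepsin and trypsin (PT-G), and the same enzyme mixture taken through the digestion without gliadin (PT). The enzymes in PT and PT-G had been heat-inactivated, doses of PT and PT-G are not given in the sources used here, and the cells of every group were detached with trypsin before RNA was taken. RNA of 4 arrays per group, from 4 independent experiments on cells that were 1 or 2 passages apart, was labelled with Cy3 and read on Agilent arrays. All values come from this 1 cell line. Dates in the array names sort the 16 arrays into 4 runs with 1 array of each group. The arrays lay on 5 slides. Runs 1 and 2 filled slides 1 and 2, slides 3 and 4 held 3 arrays each of runs 3 and 4, and slide 5 held the PT array of run 3 and the p31-43 array of run 4. The median intensity of an array was 153 to 410 and its median background 48 to 65, and the 2 arrays of slide 5 were the brightest. Epithelial markers (EPCAM, CDH1, keratins, VIL1 and CDX2) were well above background on all 16 arrays with 11 of 12 probes, and none of the 12 passed the threshold (a nominal p under 0.01 in limma without a block) in any comparison. Of 17 probes for leukocyte, endothelial and fibroblast markers, 7 were not well above background on any array, among them both PTPRC probes and CDH5, while CD14 and PECAM1 were well above background on all, and none of the 17 passed the threshold between a treatment and MED-CTL. When runs were blocks in the model, CDX2 (−0.72, SE without a block 0.48, adjusted p = 0.0348) and COL3A1 (A_23_P142533, −0.45, SE without a block 0.18, adjusted p = 0.0193) passed lower with PT-G, as did COL3A1, CDX2 and VIL1 (A_23_P16866) with PT, and the part of this in the results was not tested.

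The promoters of the members show how far these genes differ where transcription starts. They are printed for KLF6, which had the largest change, for KLF4 and KLF2, since all of these hold the same motif, and for KLF13, which also changed and does not hold it. The sequences are from RefSeq (GRCh38.p14) and cover the 250 bases before the start, 5′ to 3′ on the strand of the gene. KLF6 is at chr10:3785210-3785459 (minus strand), KLF4 at chr9:107489770-107490019 (minus strand), KLF2 at chr19:16324576-16324825 (plus strand) and KLF13 at chr15:31326585-31326834 (plus strand). Capitals mark GCGNGGGCG, the motif of the EGR factors, on either strand.
KLF6: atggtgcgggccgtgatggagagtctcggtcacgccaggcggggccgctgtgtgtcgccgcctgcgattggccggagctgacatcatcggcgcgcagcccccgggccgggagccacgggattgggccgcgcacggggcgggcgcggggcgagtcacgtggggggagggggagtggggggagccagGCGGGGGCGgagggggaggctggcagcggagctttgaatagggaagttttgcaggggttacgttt
KLF4: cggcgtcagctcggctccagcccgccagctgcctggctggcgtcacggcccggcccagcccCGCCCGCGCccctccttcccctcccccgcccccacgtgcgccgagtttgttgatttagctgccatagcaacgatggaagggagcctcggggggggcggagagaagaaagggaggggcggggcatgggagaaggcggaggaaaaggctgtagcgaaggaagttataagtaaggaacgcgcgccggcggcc
KLF2: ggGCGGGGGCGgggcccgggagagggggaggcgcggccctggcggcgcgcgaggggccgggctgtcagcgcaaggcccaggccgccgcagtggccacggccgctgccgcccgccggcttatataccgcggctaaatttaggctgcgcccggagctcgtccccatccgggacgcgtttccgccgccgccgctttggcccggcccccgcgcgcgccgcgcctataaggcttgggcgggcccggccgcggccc
KLF13: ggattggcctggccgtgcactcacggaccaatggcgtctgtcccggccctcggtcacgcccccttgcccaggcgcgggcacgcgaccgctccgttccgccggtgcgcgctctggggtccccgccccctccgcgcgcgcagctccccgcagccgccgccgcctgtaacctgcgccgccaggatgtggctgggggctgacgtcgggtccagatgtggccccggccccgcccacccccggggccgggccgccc

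Of the 9 genes, 7 had an entry in the RefSeq promoter table, KLF5 and KLF11 with 2 starts each, which makes 9 promoters. KLF3 and KLF10 had none. GCGNGGGCG was found in 3 of the 9 (KLF2, KLF4 and KLF6) and in 8.41% of the 35116 promoters in the table. It began 65 bases before the start of KLF6, 189 bases before that of KLF4 and 248 bases before that of KLF2, and in each of these it overlaps a match of the GC box. The GC box GGGCGG, which SP factors and KLFs bind, was found on either strand in 7 of the 9, against 42.6% of all promoters. There were 6 and 2 matches in the KLF11 starts, 4 each in KLF2 and KLF4, 3 in KLF13, 2 in KLF6 and 2 in 1 KLF5 start. CACCC was found in 4 of 9 (54.7% of all) and TGACGTCA in 1, a KLF11 start (1.65% of all). The KLF9 window and the first KLF5 start were poor in G and C (32.4% and 40.8%), while the other 7 held 69.2% to 80.0%. A match is a description of these letters only.

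After 6 h, PT-G-treated cells had more mRNA of most of these factors than MED-CTL cells. KLF6 and KLF10 were more than doubled, KLF5, KLF9 and KLF13 rose by 0.73 to 0.83 on the log2 scale, and KLF4 stood 2.00-fold higher on average with a wide spread between arrays. Values are log2 median intensities after normalization with the quantiles method, and a log2 fold change is the difference between 2 group means of 4 arrays. In RNA of whole cultures, a change in all cells and a change in some of them cannot be told apart. With the study's threshold, a nominal p under 0.01 in limma, 7 of the 15 probes (6 of the 9 genes) passed, all of them higher, beside 3.44% of all 40982 probes tested and 1.91% tested and higher. With a Benjamini-Hochberg adjusted p under 0.05 over all probes, 5 probes of 5 genes passed (KLF5, KLF6, KLF9, KLF10 and KLF13), beside 0.944% of all probes. Those 5 became 1 with median scaling, 3 with the background-subtracted signal and 0 in a fit of these 2 groups alone. In that fit 5 member probes passed the nominal threshold (889 of all, against 1408 in the main fit). Over all probes the 387 at the adjusted threshold became 164, 143 and 38 in these settings. The log2 fold change was above 0 for 14 of 15 probes (47.9% of all probes), and its median over the 15 was 0.73, beside −0.01 over all probes.

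Arrays of the same run tended to deviate together from their group means, so the difference was also taken within each run. For PT-G and MED-CTL these deviations correlated by 0.628 to 0.857 over the probes. The PT array of run 3 deviated least with its run, by −0.01 with MED-CTL, 0.05 with PT-G and 0.15 with p31-43. With the p31-43 array of run 4, which shared slide 5 with it, the correlation was 0.55, and both were scanned on a day apart from all others. Effects of run, slide and scan day cannot be told apart for this PT array. Within-run and run-block values of PT given below carry this limit. PT-G was above MED-CTL in all 4 runs for 13 of the 15 probes, beside 13.8% of all probes. With runs as blocks in the model, 11 probes had a nominal p under 0.01 (9.16% of all) and 9 an adjusted p under 0.05 (5.75% of all), which now included KLF4 and KLF2. With the labels' replicate numbers as blocks, 10 had a nominal p under 0.01 (7.59% of all) and 8 an adjusted p under 0.05 (3.94% of all). With slides as blocks, these numbers were 13 (12.2% of all) and 12 (9.3% of all). All 4 PT-G arrays lay on the same slide as the MED-CTL array of their run.

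**Figure D1:**
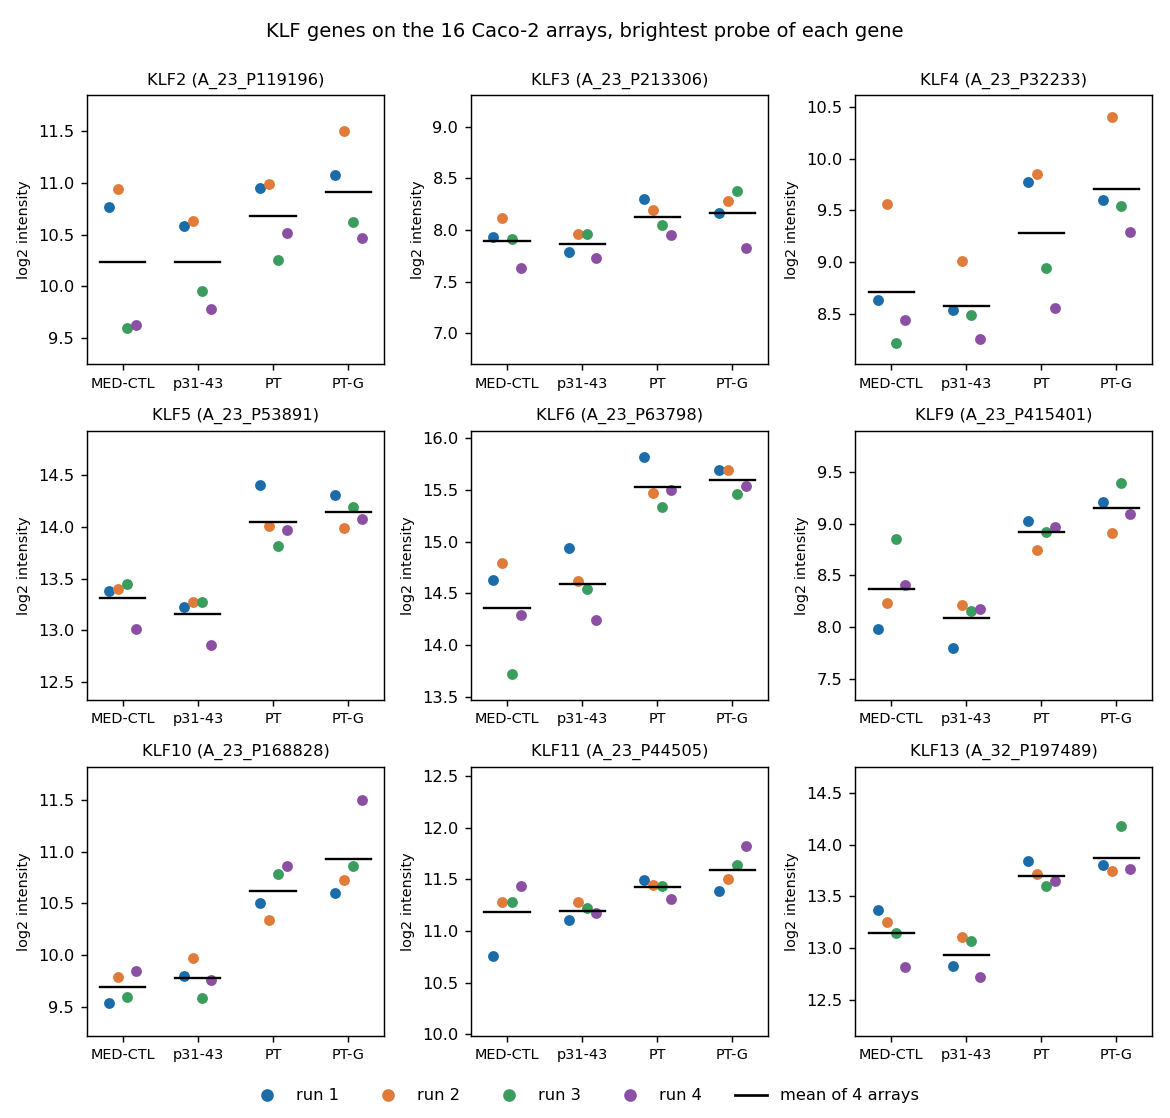
Log2 intensity (y axis, a window of equal height in each panel) of the brightest probe of each of the 9 genes in the 4 groups (x axis); points are arrays, colours are runs, and lines are means of 4 arrays. For KLF5, KLF6, KLF9, KLF10 and KLF13 all PT-G points lie above all MED-CTL points, while for KLF2 runs 1 and 2 lie above runs 3 and 4 in every group and for KLF4 run 2 is highest in every group.

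KLF6, a widely expressed factor that can switch on the cell cycle inhibitor CDKN1A, had 3 probes. A_23_P63798 read 14.63, 14.80, 13.72 and 14.29 on the MED-CTL arrays of runs 1 to 4 and 15.69, 15.69, 15.46 and 15.54 on the PT-G arrays. Every PT-G array was above every MED-CTL array, and the PT-G arrays were closer together. The log2 fold change was 1.24 (SE 0.20, 2.36-fold), with an adjusted p of 0.00997 in limma. A_24_P69654 read 13.31, 13.30, 12.06 and 12.31 in MED-CTL and 14.30, 14.33, 13.56 and 13.26 with PT-G. Here runs 1 and 2 were higher than runs 3 and 4 in both groups, so the groups overlapped although PT-G was 0.95 to 1.49 above MED-CTL in every run. Its log2 fold change was 1.12 (SE 0.36), with an adjusted p of 0.263 without a block, 6.36e-04 with runs as blocks and 0.00139 with replicate numbers as blocks. A_24_P252739, designed on another KLF6 transcript, changed by 0.55 (SE 0.25, adjusted p = 0.593), with 1 run in which PT-G was no higher than MED-CTL.

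KLF4, the gut-enriched factor of surface cells, had 1 probe. It read 8.63, 9.56, 8.22 and 8.44 in MED-CTL and 9.60, 10.41, 9.54 and 9.29 with PT-G in runs 1 to 4. The MED-CTL array of run 2 was higher than the PT-G arrays of runs 3 and 4, so the groups overlapped. Within runs the differences were 0.97, 0.85, 1.33 and 0.84. The log2 fold change of 1.00 (SE 0.34) had a nominal p of 0.0120 and an adjusted p of 0.320, with runs as blocks 0.00440, with replicate numbers as blocks 0.0375 and with slides as blocks 0.00404. KLF10 and the KLF6 probe A_23_P63798 changed by a little more and with a smaller SE, while the other KLF6 probes changed by 1.12 with a larger SE and by 0.55.

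KLF5, the factor of dividing crypt cells, was read by A_23_P53891 at 13.38, 13.40, 13.45 and 13.01 in MED-CTL and at 14.31, 13.99, 14.20 and 14.08 with PT-G. No PT-G array was as low as a MED-CTL array, and the log2 fold change was 0.83 (SE 0.14, adjusted p = 0.0110). The other KLF5 probe, A_24_P210406, gave nearly the same change, 0.81 (SE 0.37, adjusted p = 0.605, with runs as blocks 0.0477), from values that ranged from 9.54 to 11.47 in MED-CTL. KLF2, known for keeping endothelial cells and T cells quiet, read 10.77, 10.94, 9.60 and 9.62 with A_23_P119196 in MED-CTL and 11.07, 11.50, 10.62 and 10.47 with PT-G. Runs 1 and 2 were more than 1 unit above runs 3 and 4 in MED-CTL, so differences within runs of 0.31 to 1.02 left the groups overlapping. Its log2 fold change was 0.68 (SE 0.34, adjusted p = 0.687, with runs as blocks 0.0109 and with replicate numbers 0.0205).

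Among the SIN3-binding members, KLF10 had the smallest p of all 15 probes. KLF10 is known as a TGF-β-inducible early gene. It read 9.54, 9.79, 9.59 and 9.85 in MED-CTL and 10.60, 10.72, 10.86 and 11.50 with PT-G. The lowest PT-G array was above the highest MED-CTL array, and the log2 fold change was 1.23 (SE 0.17, 2.35-fold, adjusted p = 0.00403). KLF11, the other TGF-β-inducible gene of the family, changed by 0.40 with A_23_P44505 (SE 0.13, adjusted p = 0.242), which passed the nominal threshold, and by 0.39 with A_23_P319512 (SE 0.22, adjusted p = 0.773). PT-G was higher than MED-CTL in all 4 runs with either KLF11 probe, by 0.23 to 0.63.

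KLF9, a target of glucocorticoid and thyroid hormone receptors, read 7.98, 8.23, 8.85 and 8.40 in MED-CTL and 9.21, 8.91, 9.39 and 9.09 with PT-G. The groups did not overlap, and the log2 fold change was 0.79 (SE 0.16, adjusted p = 0.0346). The adjusted p rose above 0.05 when any array of these groups other than MED-CTL replicate 3 was left out, to at most 0.110. KLF13, which is known from T cells as a factor of the chemokine gene CCL5, read 13.37, 13.25, 13.14 and 12.81 with A_32_P197489 in MED-CTL and 13.80, 13.74, 14.18 and 13.76 with PT-G. The groups did not overlap here either, and the log2 fold change was 0.73 (SE 0.13, adjusted p = 0.0168). The other KLF13 probe, A_23_P413150, changed by 0.42 (SE 0.42, adjusted p = 1.00), with PT-G above MED-CTL in every run. In all, the groups were apart for 5 of the 15 probes, all with PT-G higher, beside 2.01% of all probes.

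KLF3, the CtBP-binding repressor, changed least among the probes with PT-G higher in every run. It read 7.93, 8.11, 7.91 and 7.63 in MED-CTL and 8.17, 8.28, 8.38 and 7.82 with PT-G. Its log2 fold change was 0.26 (SE 0.13, adjusted p = 0.664, with runs as blocks 0.0939). The groups overlapped here. The only probe with a negative log2 fold change was the dim KLF2 probe A_24_P151305 (−0.25, SE 0.12, adjusted p = 0.628).

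**Figure D2:**
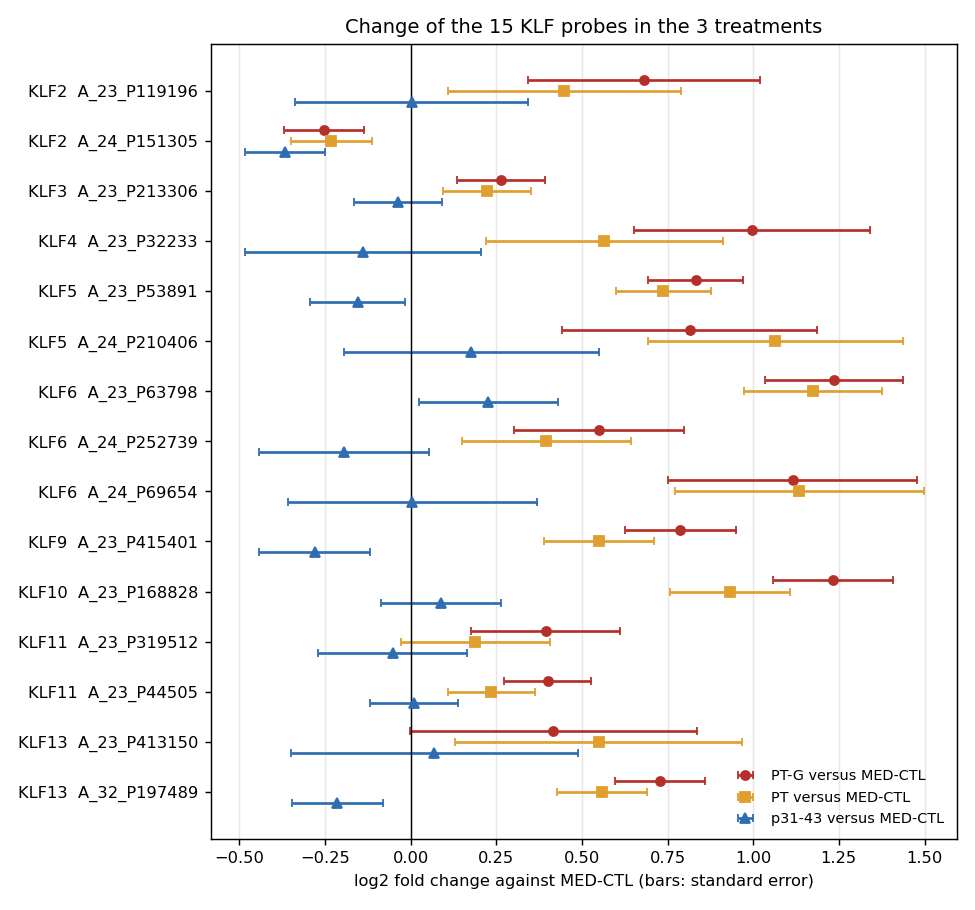
Log2 fold change against MED-CTL (x axis; bars are standard errors of the model) of each of the 15 probes (y axis) in the 3 treatments of 4 arrays each. PT-G and PT lie above 0 for 14 of 15 probes, with KLF6 and KLF10 highest under PT-G, and p31-43 lies on both sides of 0.

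PT, the enzyme mixture without gliadin, also left most members above MED-CTL. KLF6, KLF5 and KLF10 had the highest log2 fold changes, and KLF9 and KLF13 also had a nominal p under 0.01. The nominal threshold was passed by 6 of the 15 probes (5 of 9 genes), all higher, beside 3.64% of all probes tested (1.8% higher), and the adjusted threshold by 3 (KLF5, KLF6 and KLF10), beside 0.82% of all probes. KLF6 (A_23_P63798) read 15.82, 15.48, 15.34 and 15.50 on the PT arrays of runs 1 to 4, all above the MED-CTL arrays. Its log2 fold change was 1.17 (SE 0.20, adjusted p = 0.0142). KLF10 read 10.51, 10.34, 10.79 and 10.86 with PT, also above every MED-CTL array, with a log2 fold change of 0.93 (SE 0.17, adjusted p = 0.0231). KLF5 (A_23_P53891) read 14.40, 14.01, 13.82 and 13.97, and its log2 fold change was 0.74 (SE 0.14, adjusted p = 0.0238).

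KLF4 read 9.77, 9.85, 8.94 and 8.55 with PT in runs 1 to 4. It was higher than MED-CTL by 1.14 in run 1 and by only 0.11 in run 4, and the log2 fold change of 0.57 (SE 0.34) had an adjusted p of 0.725, with runs as blocks 0.0630. KLF9 changed by 0.55 (SE 0.16, adjusted p = 0.183, with runs as blocks 0.0385) and KLF13 (A_32_P197489) by 0.56 (SE 0.13, adjusted p = 0.0748, with runs as blocks 0.0153). The second KLF6 probe A_24_P69654 changed by 1.13 (SE 0.36, adjusted p = 0.241, with runs as blocks 6.24e-04) and the second KLF5 probe A_24_P210406 by 1.06 (SE 0.37, adjusted p = 0.308, with runs as blocks 0.0132). The log2 fold change was above 0 for 14 of 15 probes (47% of all), PT was above MED-CTL in all 4 runs for 11 of the 15 probes (11.1% of all), and PT and MED-CTL did not overlap for 6, all higher (2.36% of all). With runs as blocks, 10 probes had a nominal p under 0.01 (10.3% of all) and 7 an adjusted p under 0.05 (6.56% of all), and with slides as blocks 12 (10.6% of all) and 8 (6.98% of all). The PT array of run 3 shares no slide with a MED-CTL array. The 3 calls at the adjusted threshold fell to 0 without PT replicate 1, to 1 without PT replicate 4, to 1 without MED-CTL replicate 2, and to 2 without both arrays of slide 5. Over all probes the 336 at this threshold fell to 197, 167, 148 and 144 in these settings. Median scaling left 2 member probes at the nominal threshold (1068 of all, against 1491) and 1 at the adjusted one (116 of all). A fit of PT and MED-CTL alone left 0 at the adjusted threshold (21 of all), and the background-subtracted signal 1 (130 of all).

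**Figure D3:**
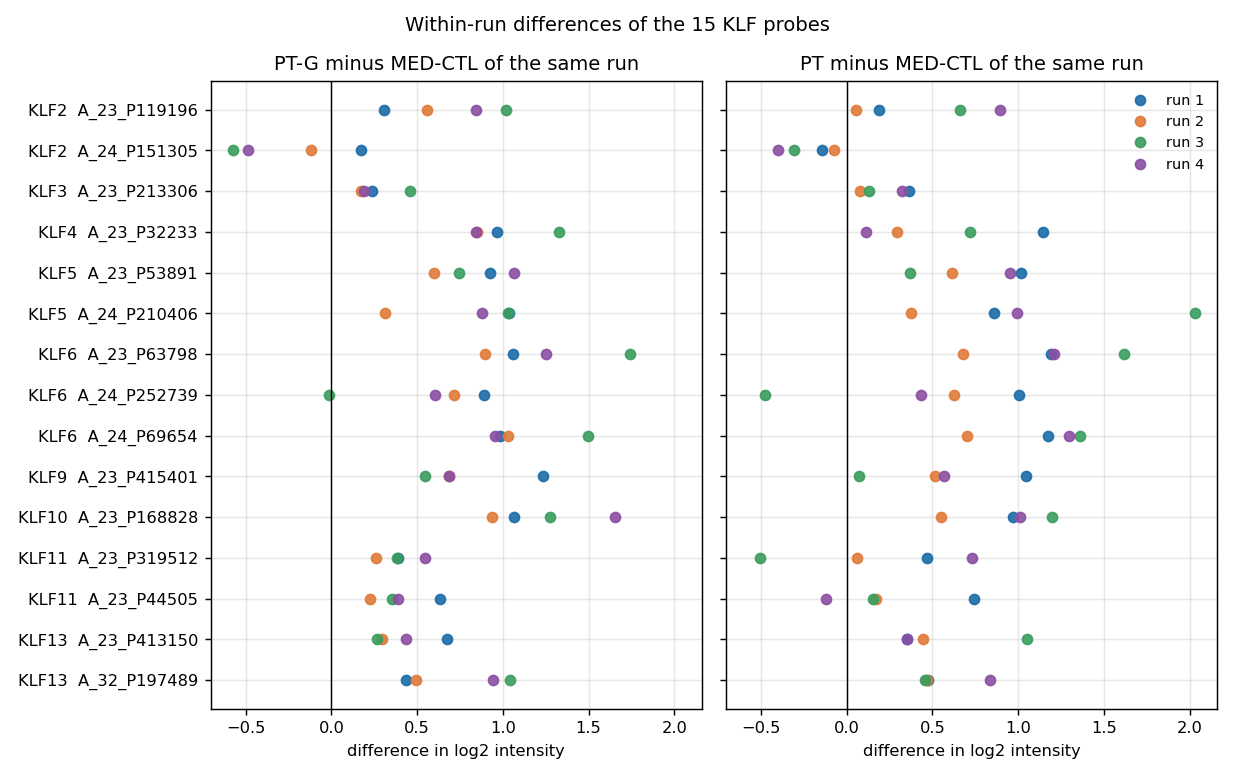
Difference in log2 intensity (x axis) between the PT-G array (left) or the PT array (right) and the MED-CTL array of the same run for the 15 probes (y axis), coloured by run. On the left 13 probes have all 4 runs above 0 and on the right 11, and the dim KLF2 probe lies mostly below 0 on both sides.

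With the gliadin peptide p31-43, no member rose past the threshold. The median log2 fold change of the 15 probes against MED-CTL was −0.04, beside 0.00 over all probes, their range was −0.37 to 0.23, and 7 of 15 were above 0 (49.6% of all). KLF6 (A_23_P63798) read 14.94, 14.62, 14.54 and 14.25 with p31-43 in runs 1 to 4, within the span of the MED-CTL arrays but for run 1, and changed by 0.23 (SE 0.20, adjusted p = 1.00, 95% interval −0.21 to 0.66). KLF10 read 9.80, 9.97, 9.58 and 9.76 and changed by 0.09 (SE 0.17, interval −0.29 to 0.46). KLF4 read 8.54, 9.01, 8.49 and 8.26 and changed by −0.14 (SE 0.34, interval −0.88 to 0.60). KLF5 (A_23_P53891, −0.15, SE 0.14), KLF9 (−0.28, SE 0.16) and KLF13 (A_32_P197489, −0.21, SE 0.13) were below MED-CTL in all 4 runs, by small amounts that did not pass the threshold. In all, 4 of the 15 probes were below MED-CTL in every run (8.42% of all) and 0 above it in every run (8.51% of all).

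With p31-43, 1 of the 15 probes had a nominal p under 0.01, beside 0.388% of all probes, and no KLF probe, nor any other probe on the array, passed the adjustment in limma. This was the dim KLF2 probe A_24_P151305, which read 6.58, 6.73, 6.45 and 6.53 with p31-43 and 6.74, 6.84, 7.21 and 6.97 in MED-CTL. All p31-43 arrays were lower than all MED-CTL arrays, with a log2 fold change of −0.37 (SE 0.12, adjusted p = 1.00), and the groups were apart in this direction for 0.878% of all probes. The call was lost without p31-43 replicate 1, 3 or 4, without MED-CTL replicate 3 or 4, without both arrays of slide 5, with array weights and in a fit of these 2 groups alone.

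PT-G and PT were also compared with each other. No KLF probe passed the nominal threshold between them without a block, beside 0.0903% of all probes. At an unadjusted p under 0.05 the number was still 0 in this fit. Few probes of the whole array reached that level. KLF10, with the smallest p of the members (0.108 in limma), ranked at 2.6% of all probes by p. With runs as blocks none passed the nominal threshold either (130 of all probes), but KLF4 had a nominal p of 0.0216 (adjusted p = 0.899). With slides as blocks the nominal p was 0.0379 for KLF4 and 0.0256 for KLF10, and no probe passed either threshold (149 of all probes at the nominal one). The log2 fold change was above 0 for 11 of 15 probes (52.9% of all). KLF4 had the largest, 0.43 (SE 0.34, 95% interval −0.31 to 1.17), with PT-G higher in runs 2 to 4 by 0.56 to 0.73 and lower in run 1 by 0.17. KLF10 differed by 0.30 (SE 0.17, interval −0.07 to 0.68) and KLF9 by 0.24 (SE 0.16, interval −0.11 to 0.58), and these were the 2 probes with PT-G higher in all 4 runs (4.51% of all). KLF6 (A_23_P63798) differed by 0.06 (SE 0.20, interval −0.37 to 0.50). Over the 15 probes the intervals reached from −1.05 to 1.17, so that differences of 1 log2 unit lie within the interval of the most variable probes, and a p above the threshold does not show that PT-G and PT act alike.

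Against p31-43, both digests stood higher. PT-G was above p31-43 for all 15 probes on average (49.6% of all probes) and in all 4 runs for 14 of them (15.2% of all). The groups were apart for 7 probes (2.94% of all). The nominal threshold was passed by 9 probes of 7 genes, all higher, beside 3.73% of all probes, and the adjusted threshold by 5 (KLF5, KLF6, KLF9, KLF10 and KLF13), beside 1.16%. KLF4 was now apart, since its highest p31-43 array (9.01) was below its lowest PT-G array (9.29), with a log2 fold change of 1.14 (SE 0.34, adjusted p = 0.189, with runs as blocks 0.00194 and with replicate numbers as blocks 0.0185). KLF10 differed by 1.14 (SE 0.17, adjusted p = 0.00534), KLF9 by 1.07 (SE 0.16, adjusted p = 0.00499), KLF6 (A_23_P63798) by 1.01 (SE 0.20, adjusted p = 0.0269), KLF5 (A_23_P53891) by 0.99 (SE 0.14, adjusted p = 0.00347) and KLF13 (A_32_P197489) by 0.94 (SE 0.13, adjusted p = 0.00340). With replicate numbers as blocks, 11 probes passed the nominal threshold (8.07% of all) and 9 the adjusted one (4.46% of all), with KLF2 (A_23_P119196, 0.0187) and the KLF6 probes A_24_P69654 (0.00120) and A_24_P252739 (0.0485) added, and with runs as blocks the numbers were also 11 (9.63% of all) and 9 (6.29% of all). The 9 probes fell to 5 without PT-G replicate 2, without p31-43 replicate 3, without p31-43 replicate 4 or without both arrays of slide 5. Over all probes the 1528 at the nominal threshold became 1241, 1494, 1242 and 1148 in these settings.

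For PT against p31-43, 6 probes of 5 genes passed the nominal threshold, all higher, beside 3.15% of all probes, and 5 the adjusted one (KLF5, KLF6, KLF9, KLF10 and KLF13), beside 0.769%. KLF5 (A_23_P53891) differed by 0.89 (SE 0.14, adjusted p = 0.00714), KLF13 (A_32_P197489) by 0.77 (SE 0.13, adjusted p = 0.0134), KLF9 by 0.83 (SE 0.16, adjusted p = 0.0300), KLF10 by 0.84 (SE 0.17, adjusted p = 0.0403) and KLF6 (A_23_P63798) by 0.95 (SE 0.20, adjusted p = 0.0476). KLF4 differed by 0.70 (SE 0.34, adjusted p = 0.750, with runs as blocks 0.0289). PT was higher in all 4 runs for 14 of the 15 probes (10.6% of all) and apart from p31-43 for 8 (2.6% of all), and it was higher on average for all 15 (48.9% of all). With runs as blocks 11 probes (8.42% of all) passed the nominal and 8 (4.98% of all) the adjusted threshold, and with replicate numbers as blocks 9 (7.01% of all) and 7 (3.53% of all), with KLF5 A_24_P210406 (0.0481) and KLF6 A_24_P69654 (0.00128) added. The 5 calls at the adjusted threshold fell to 1 or 2 when any PT or p31-43 array was left out, and to 1 without both arrays of slide 5. Over all probes the 315 at this threshold fell to between 144 and 239 when 1 array was left out and to 80 without slide 5. The 5 became 0 with median scaling (115 of all) and 1 with the background-subtracted signal (164 of all). The comparisons of PT-G and PT with MED-CTL or with p31-43 share their control arrays, and so do those of the treatments with MED-CTL, and their values are given side by side only.

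Genes with several probes did not always give 1 picture. The coordinates in the array's annotation, for which no build is named, place the probes along the gene, and distances are genomic bases between their 3′ ends. In KLF2 the dim probe lies 2042 bases before the bright one, and over the 16 arrays the Pearson correlation of their log2 intensities was −0.18. In KLF6, A_23_P63798 and A_24_P69654 lie 2969 and 3361 bases before A_24_P252739, and their correlation was 0.92, while that with A_24_P252739 was 0.52 and 0.60. In KLF13 A_23_P413150, whose letters span an intron, lies 5715 bases before A_32_P197489 (correlation 0.33), in KLF5 A_24_P210406 lies 13029 bases before A_23_P53891 (0.58), and in KLF11 A_23_P319512 lies 1890 bases before A_23_P44505 (0.19). The coordinates of KLF5 A_24_P210406 and KLF6 A_24_P69654 also cover more genomic bases (1149 and 575) than the 60 of most probes. The correlations describe arrays that share runs and treatments.

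The rest of the family was set beside the members. The array carries 24 probes for 15 further KLF and SP genes, and 17 of these were well above background on all arrays and 4 (among them KLF7 and KLF8) on none. Their median log2 fold change between PT-G and MED-CTL was 0.00, beside 0.73 for the 15 member probes and −0.01 for all probes. SP4, a relative of SP1, was the only one with a nominal p under 0.01 when no block was used (0.34, SE 0.09, adjusted p = 0.111, with runs as blocks 0.00881), and it had a similar value with PT (0.35, SE 0.09, adjusted p = 0.102). With runs as blocks, 3 of the 24 probes passed higher and 1 lower with PT-G (9.16% of all probes), and 2 passed higher and 2 lower with PT (10.3% of all). These included KLF15 probe A_24_P20327, named after its values were seen, which changed by 0.82 with PT-G (SE 0.39, adjusted p = 0.656, with runs as blocks 0.0340) and by 1.04 with PT (SE 0.39, adjusted p = 0.379, with runs as blocks 0.0103). These changes are as large as those of the members, while the other KLF15 probe, A_23_P40805, was well above background on no array. The others were KLF16 (A_23_P16476, 0.45) and SP8 (−0.31) with PT-G, and SP5 (A_32_P183718, −0.36) and SP8 (−0.35) with PT. The other KLF16 probe, A_24_P173294, was brighter (mean 13.96, against 7.08) and changed by −0.75 with PT-G with a wide error (SE 1.13). SP1, the best known GC box factor, changed by 0.07 and 0.05 with its probes A_23_P53397 and A_23_P366312. With p31-43, KLF14 was lower by a nominal p under 0.01 (−0.36, SE 0.10, adjusted p = 1.00). As the members were picked with earlier results of these arrays known, the difference from the rest of the family was not tested.

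**Figure D4:**
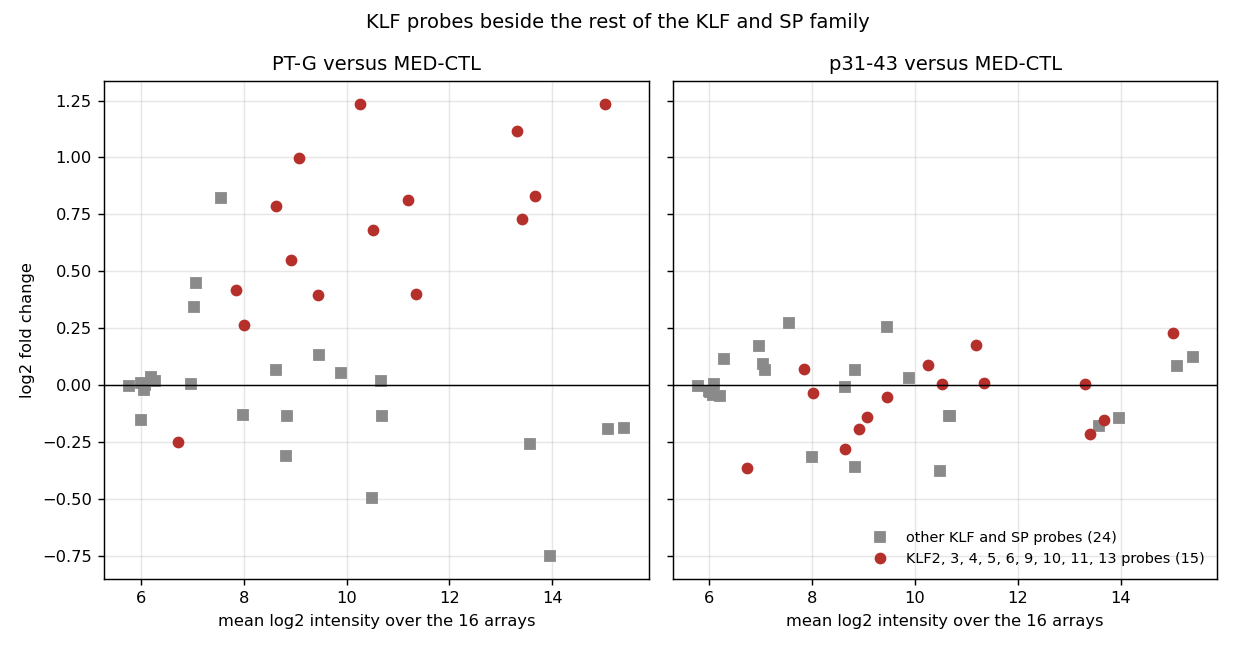
Log2 fold change (y axis) against mean log2 intensity over the 16 arrays (x axis) for the 15 probes of the 9 KLF genes (circles) and for the 24 probes of 15 other KLF and SP genes (squares), for PT-G (left) and p31-43 (right) against MED-CTL. On the left 14 circles lie above 0 and the squares lie on both sides with a median of 0.00, and on the right circles and squares overlap.

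Genes known to act on KLFs or to be bound by them were counted as lists. Of 37 probes for 21 kinases, receptors and transcription factors upstream of KLF genes, 5 rose with PT-G, 0 fell, and 2 passed the adjustment, all without a block. Among the 5 were TGFBR2, a TGF-β receptor chain (0.69, SE 0.14, adjusted p = 0.0309), FOXO1, a factor that drives KLF2 in lymphocytes, with both probes (A_24_P22079, 0.74, SE 0.15, adjusted p = 0.0366, and A_23_P151426, 1.06, SE 0.29, adjusted p = 0.142), and ELK4, a partner of SRF (0.45, SE 0.12, adjusted p = 0.142). The median over the 37 probes was 0.11. With PT, TGFBR2 (0.62, SE 0.14, adjusted p = 0.0580) and both FOXO1 probes (1.19, SE 0.29, adjusted p = 0.0891 and 0.76, SE 0.15, adjusted p = 0.0364) had a nominal p under 0.01. When runs were blocks, 7 of the 37 passed higher and 1 lower with PT-G (9.16% of all probes), and TGFB1 and NR3C1 are named from these after their values were seen. TGFB1, the ligand of TGFBR2, changed by 0.53 (SE 0.21, adjusted p = 0.456, with runs as blocks 0.00985). NR3C1, the glucocorticoid receptor, changed by −0.43 with A_23_P214059 (SE 0.37, adjusted p = 0.991, with runs as blocks 0.00216), and by −0.54 with PT (SE 0.37, adjusted p = 0.764, with runs as blocks 5.45e-04). EGR1, whose motif is in 3 of the promoters above, changed by 0.75 with PT-G with a wide error (SE 0.53, adjusted p = 0.919).

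Of 27 probes for 16 cofactors and turnover enzymes of KLF proteins, 0 rose and 1 fell with PT-G, the corepressor SIN3B (−0.39, SE 0.12, adjusted p = 0.187), with a median of 0.03. With PT, SMURF1, a ubiquitin ligase, rose (0.43, SE 0.13, adjusted p = 0.189) and CTBP1 fell (−0.59, SE 0.20, adjusted p = 0.265). Of 35 probes for 22 genes described as KLF targets, 4 rose and 1 fell with PT-G, and 2 and 1 passed the adjustment, around a median of 0.00. CDKN1A, the cell cycle inhibitor p21, rose by 1.22 (SE 0.27, adjusted p = 0.0464) with PT-G and by 1.34 (SE 0.27, adjusted p = 0.0315) with PT. ATF3, a stress-induced factor, rose with both probes under PT-G (A_23_P34915, 1.14, SE 0.14, adjusted p = 0.00136, and A_24_P33895, 0.95, SE 0.27, adjusted p = 0.157), and MYC rose by 1.07 with A_23_P215956 (SE 0.27, adjusted p = 0.0963). With PT, 2 of the 35 probes rose and 1 fell at the nominal threshold (3.64% of all probes), and 2 and 1 passed the adjustment (0.82% of all). ATF3 and MYC are given for PT-G only, and no difference from PT is claimed for them. TXNIP, a thioredoxin inhibitor, fell by 1.39 with PT-G (SE 0.14, adjusted p = 3.40e-04) and by 1.12 with PT (SE 0.14, adjusted p = 0.00177). The study threshold was passed by 3.44% of all probes in the PT-G comparison, and by 5 of 37, 1 of 27 and 5 of 35 in these lists. The numbers were 8, 3 and 7 with runs as blocks (9.16% of all). With p31-43 and no block, 0 of 37, 0 of 27 and 1 of 35 passed it.

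Among 18198 probes of named genes outside the family that were well above background on all 16 arrays, those most like KLF4 over the arrays were BTNL3 (Pearson r = 0.95), FOSL1 (0.92), AXUD1 (0.91), C4orf25 (0.91) and FRAT2 (0.91). FOSL1 is an AP-1 subunit, and its log2 fold change between PT-G and MED-CTL was 1.67 (adjusted p = 0.118). Most like KLF6 (A_23_P63798) were SPRY4 (0.94), ZFP36 (0.94), C1orf116 (0.94), ZNF488 (0.94) and GDF15 (0.94). SPRY4, an inhibitor of growth factor signalling, changed by 1.56 (adjusted p = 0.00136), ZFP36, which speeds mRNA decay, by 1.43 (adjusted p = 0.0117) and GDF15, a stress cytokine, by 1.23 (adjusted p = 0.00725). The 16 points share 4 treatments and 4 runs, and the correlations are a description.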

How the data were processed

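For every spot the authors' scanner software gave an intensity (median and mean foreground, local background) on a linear scale, and these files were deposited without normalization between arrays. The log2 values the authors deposited equal the median foreground after the quantiles method over all spots, within 5e-09. For the values here, 1639 control spots were dropped, and the log2 median foreground of the other 43376 spots went through the quantiles method. No background was subtracted. Then 1774 outlier-marked spots, counted over all 16 arrays together (0.256% of their spots), were dropped, and spots of a probe were averaged. One limma (3.58.1, R 4.3.3) model of the 4 groups was fitted to 40982 probes with at least 3 arrays in each group. Its tests were moderated and 2-sided, with 12 residual degrees of freedom and a prior of 1.88. The number of arrays limits the precision.

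All member probes are named. From the gene lists, probes with a nominal p under 0.01 for PT-G or PT are named, except 1 that is not reported here. The likeness search took KLF4 and the member probe of largest PT-G change. The members and lists were chosen with earlier results of these data known. To see whether replicate numbers pair arrays, deviations from the group means were correlated over probes. Same-numbered arrays gave 0.395 to 0.857 for PT-G and MED-CTL and 0.262 to 0.707 for p31-43 and MED-CTL. They gave 0.578 to 0.836 for PT-G and p31-43, and 0.152 to 0.600 for PT and p31-43. These comparisons were taken as paired by the labels' numbers. PT and MED-CTL (lowest −0.01) and PT-G and PT (lowest 0.05) were not. MED-CTL replicates 1 and 2 belong to runs 2 and 1, so pairs by number and by run differ there. For PT-G and MED-CTL, runs 1 and 2 gave 0.628 and 0.723, against 0.558 and 0.395 for numbers 1 and 2. For p31-43 and MED-CTL they gave 0.538 and 0.686, against 0.306 and 0.262. Runs thus paired these MED-CTL arrays better than the numbers did. In simulated PT-G and MED-CTL data of 40705 probes, 120 of 200 probes changed by 0.5 on the log2 scale were recovered, 180 changed by 1 and 197 changed by 2. The simulated noise was independent between arrays, without effects of run or slide, so these shares may not hold for the real arrays. Alternatives were 3 other normalizations (the processed signal at its 75th percentile, normexp with offset 50, median scaling), the table of the authors, leaving out dim probes, blocks, array weights (statmod 1.5.0), fits of 2 groups and leaving out arrays. Promoters were searched for 4 motifs on both strands with Python 3.11.15.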

Additional observations from a re-analysis of the deposited data

Results flagged for a closer look

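Among 60 groups of 4 arrays (15 probes in 4 conditions), 6 had an array that stood apart by Dixon's ratio, the gap to the nearest other array over the range of the group, exceeding its critical value at the 95% level. Chance flags about 5% of groups, here 3. KLF5 (A_23_P53891) was lowest on replicate 4 in MED-CTL (13.01, the next 13.38, ratio 0.849) and in p31-43 (12.85, the next 13.22, ratio 0.871). KLF11 (A_23_P319512) was lowest on replicate 4 in MED-CTL (8.79, the next 9.45, ratio 0.893) and in PT-G (9.33, the next 9.79, ratio 0.862). KLF9 was lowest on p31-43 replicate 1 (7.80, the next 8.16, ratio 0.868). KLF13 (A_32_P197489) was highest on PT-G replicate 3 (14.18, the next 13.80, ratio 0.865).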

How the results depend on the processing

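The alternatives were counted for all 15 member probes in 4 comparisons, for 7 in p31-43 against MED-CTL and for 4 in PT-G against PT. Of 1349 values, 1195 kept their direction and their side of the nominal threshold, 79 lost the call, 71 gained it and 4 changed sign. With replicate numbers as blocks, the pairing check in the methods being met for 4 of the 6 comparisons, 10, 9, 1, 0, 11 and 9 probes passed the nominal threshold for PT-G, PT and p31-43 against MED-CTL, PT-G against PT, and PT-G and PT against p31-43. Over all probes these numbers were 3110, 3481, 432, 95, 3309 and 2874. With runs as blocks the numbers for PT-G and PT against MED-CTL and PT against p31-43 were 11, 10 and 11 (3755, 4217 and 3451 of all probes), and with slides as blocks 13, 12 and 12 (5011, 4333 and 4311 of all). Median scaling left 2 for PT against MED-CTL (1068 of all), and moved the median of all probes by −0.13 for p31-43 against MED-CTL. The 1 call for p31-43 (159 of all) became 0 without dim probes (82 of all) and with array weights (572 of all). It also became 0 in a fit of 2 groups (82 of all) and without both arrays of slide 5 (103 of all). Leaving out slide 5, an alternative chosen after seeing the data, left 5 for PT-G against p31-43 (1148 of all). Leaving out 1 array gave 6 to 8 for PT-G (1056 to 1686 of all) and 4 to 6 for PT against MED-CTL (1081 to 1877 of all). It gave 0 to 1 for p31-43 against MED-CTL (88 to 329 of all) and 0 for PT-G against PT (27 to 84 of all). For PT-G and PT against p31-43 it gave 5 to 9 (1179 to 1494 of all) and 5 to 6 (979 to 1207 of all). Values near 0 changed sign. For p31-43 against MED-CTL, KLF4 ranged from −0.30 to 0.14 with 1 array left out (0.14 without MED-CTL replicate 1). The log2 fold change of KLF6 (A_23_P63798), p31-43 versus MED-CTL, became −0.0268 with median scaling. For PT-G against PT, KLF6 ranged from −0.00 (−0.00314, without PT replicate 3) to 0.16, and was −0.00314 without both arrays of slide 5. The causes were not tested. With slides as blocks, 4 further probes that were not counted changed sign, KLF11 A_23_P319512 for p31-43 against MED-CTL (−0.05 to 0.01), and KLF3 (0.04 to −0.02), KLF5 A_23_P53891 (0.10 to −0.01) and KLF13 A_23_P413150 (−0.13 to 0.03) for PT-G against PT. For PT against MED-CTL, where the numbers do not pair the arrays, replicate numbers as blocks added KLF5 A_24_P210406, KLF6 A_24_P69654, KLF9 and KLF13 A_32_P197489 at the adjusted threshold (adjusted p = 0.0193, 0.00127, 0.0462 and 0.0208). Calls they added elsewhere are named with the results, and no call at this threshold was lost. Probes near background, such as KLF2 A_24_P151305, are limited by their signal.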
